A study of Mus musculus with 9 samples.

Results

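Potassium channel genes were taken as the rows of the deposited expression table whose gene symbols held one starting with Kcn, the stem of the genes for potassium channel subunits. There were 95 such rows among 84809. By symbol stem they held 30 pore-forming voltage-gated, 10 electrically silent voltage-gated, 12 auxiliary voltage-gated, 15 inward rectifier, 13 two-pore, 5 pore-forming calcium-activated and 4 auxiliary calcium-activated genes. A further 3 genes encode the related Slo channels gated by sodium or pH, and the last 3 are the regulator Kcnrg and the opposite-strand transcripts Kcnab3os and Kcnmb4os1. Their expression was compared between dermal mesenchymal cells of newborn mice separated by their surface level of integrin α6 (CD49f) in a flow cytometer. The 3 gates are CD49f-neg, CD49f-low and CD49f-high, each with 3 libraries. All mice were labelled Krt14 cre;Rosa26-mTmG: Cre is driven by the promoter of keratin 14, a gene of basal epidermal cells, and the reporter marks the membranes of cells that have expressed Cre, or whose ancestors did, with another colour. The cells were lysed directly after sorting, with no culture and no treatment given in the labels. Neither the number of mice behind a library nor their age beyond newborn is given, so p-values measure no more than the spread of these samples, which may be technical.

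Potassium channels let potassium leave or enter the cell along its gradient and so set the resting potential and end electrical signals. Voltage-gated channels open on depolarization, two-pore channels leak at rest, inward rectifiers pass inward current more easily than outward current, and calcium-activated channels open when intracellular calcium rises. In connective tissue and skin these channels are best known from vascular smooth muscle and pericytes, whose tone they set, and from Schwann cells and axons. Silent subunits conduct only together with pore-forming partners, and auxiliary subunits change gating or traffic without forming a pore.

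The selectivity filter, the stretch of the pore that all these families share, is shown for the genes on which the results turn, because it is where the members of different classes resemble each other most. The stretches were read from the GENCODE M21 transcripts (GRCm38), 5′ to 3′ on the coding strand. Capitals mark 15 bases that encode the filter signature, which is a threonine codon, any codon, a glycine codon, a codon for tyrosine, phenylalanine or leucine, and a glycine codon.
Kcna1: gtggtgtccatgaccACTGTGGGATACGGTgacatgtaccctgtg
Kcna6: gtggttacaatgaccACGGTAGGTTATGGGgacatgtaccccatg
Kcna2: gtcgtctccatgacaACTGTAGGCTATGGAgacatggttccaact
Kcnt1: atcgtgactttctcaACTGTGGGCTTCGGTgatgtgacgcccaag
Kcnj8: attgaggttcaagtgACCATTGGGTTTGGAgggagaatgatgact
Kcnk3, first pore: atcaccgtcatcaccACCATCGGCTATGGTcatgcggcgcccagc
Kcnk3, second pore: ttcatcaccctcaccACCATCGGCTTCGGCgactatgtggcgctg
Kcnk6, first pore: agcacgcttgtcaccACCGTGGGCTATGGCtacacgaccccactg
Kcnk6, second pore: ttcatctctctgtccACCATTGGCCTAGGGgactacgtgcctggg
Of the 45 bases shown for each, Kcna1 shared 35 with Kcna6, 31 with Kcna2, 27 with Kcnt1 and 13 with Kcnj8. The 2 stretches of Kcnk3 and of Kcnk6 are the pair of pore loops after which two-pore channels are named. The Kcna1 stretch lies at chr6:126642213-126642257 (minus strand) and the Kcna6 stretch at chr6:126738632-126738676 (minus strand), each within 1 coding exon. Those of Kcna2 (chr3:107105209-107105253, plus strand), Kcnt1 (chr2:25894352-25894396, plus strand) and Kcnj8 (chr6:142566433-142566477, minus strand) also lie within 1 coding exon. The first stretches of Kcnk3 (chr5:30588578-30621913, plus strand) and Kcnk6 (chr7:29225845-29232183, minus strand) are interrupted by an intron, whereas the second ones (chr5:30622187-30622231 and chr7:29225521-29225565) are not. Kcne4, an auxiliary subunit, held no such signature in its coding sequence.

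Levels are in FPKM, fragments scaled to transcript length and library size, as deposited by the authors. The spacing of the lowest values of single-exon genes put the depth at about 23.8 to 27.2 fragments for 1 FPKM over 1 kilobase. Of the 84809 rows, 20523 reached 1 FPKM in at least 3 libraries and were tested, 20 of them Kcn genes. The FPKM of 7 fibroblast markers, among them Col1a1 and Dcn, summed to 8830 to 11204 in CD49f-neg, 3617 to 4299 in CD49f-low and 2565 to 3978 in CD49f-high. Summed markers of mural cells (pericytes and vascular smooth muscle, 10 of 10 genes past the filter) were 48.6 to 54.3, 110 to 190 and 848 to 1524 FPKM in the same order, and those of Schwann cells (7 of 8) 0.664 to 1.14, 41.1 to 52.4 and 35.5 to 197. Melanocyte markers (7 of 7) summed to 2.58 to 4.03, 418 to 512 and 8.82 to 17.3, and dermal papilla markers (7 of 7) to 34.0 to 36.2, 115 to 129 and 16.9 to 25.0. Between CD49f-neg and CD49f-high the dermal papilla genes did not move together. Corin, Alpl, Sox2 and Notum were higher in every CD49f-high library than in any CD49f-neg library, and Crabp1, Hhip and Bmp4 were lower. Keratinocyte markers (5 of 6) summed to 1.12 to 1.55, 16.4 to 18.5 and 19.8 to 41.6. Krt14 and Krt15 share 1 row, which was counted for both, at 0.21 to 0.27, 1.24 to 1.72 and 4.78 to 9.87 FPKM. The keratinocyte sums are therefore too high, and no order of CD49f-low and CD49f-high is read from them. The row of Krt5 also covers Krt6a and Krt4. Endothelial markers (2 of 5) summed to 0.908 to 1.11, 4.25 to 4.97 and 6.72 to 13.2, and skeletal muscle markers (4 of 6) to 0.613 to 0.632, 12.4 to 20.0 and 1.04 to 3.03. The immune and neuronal lists (1 of 5 each) summed to 3.64 FPKM or less in every library. In such bulk samples a change in the number of cells of a type and a change in RNA per cell cannot be told apart.

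Most Kcn genes were scarce in all 3 gates. Of the 95, 66 never reached 1 FPKM in any library and 24 stayed under 0.1 FPKM throughout. Rows at 1 FPKM or more numbered 9 to 10 in CD49f-neg libraries, 12 to 18 in CD49f-low and 14 to 19 in CD49f-high. In CD49f-neg, CD49f-low and CD49f-high the FPKM of all 95 genes summed to 70.7 ± 6.80, 63.9 ± 0.238 and 124 ± 20.4 (SD, n = 3 each). In the same order, the pore-forming voltage-gated class summed to 5.96 ± 0.322, 8.42 ± 0.639 and 34.9 ± 14.6 FPKM, and the inward rectifiers to 8.95 ± 3.45, 7.12 ± 1.16 and 29.0 ± 10.1 FPKM. The Slo class summed to 0.192 ± 0.0526, 0.423 ± 0.250 and 6.84 ± 0.761 FPKM. In these 3 classes every CD49f-high library lay above every library of the other gates, as the plot of summed FPKM by class shows. The same held, by narrower margins, for the auxiliary calcium-activated genes, at 0.870 ± 0.250, 1.33 ± 0.0816 and 1.98 ± 0.394 FPKM, and for the two-pore genes, at 11.8 ± 1.49, 10.9 ± 1.44 and 14.1 ± 0.482 FPKM, while the CD49f-high range of the remaining 4 classes overlapped that of at least 1 other gate or lay below it. A single gene held a large share of some of these sums: Kcne4 had 79.8 to 90.7% of the auxiliary voltage-gated gate means and Kcnj8 80.8, 47.3 and 88.0% of the inward rectifier means, in the order given above. Kcnmb4 had 97.6, 89.8 and 79.9% of the auxiliary calcium-activated means. In CD49f-high, Kcnt1 had 81.7% of the Slo mean, Kcna1 40.9% of the pore-forming voltage-gated mean and Kcnk3 41.5% of the two-pore mean. The sums are therefore not read as differences of whole classes.

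**Figure D1:**
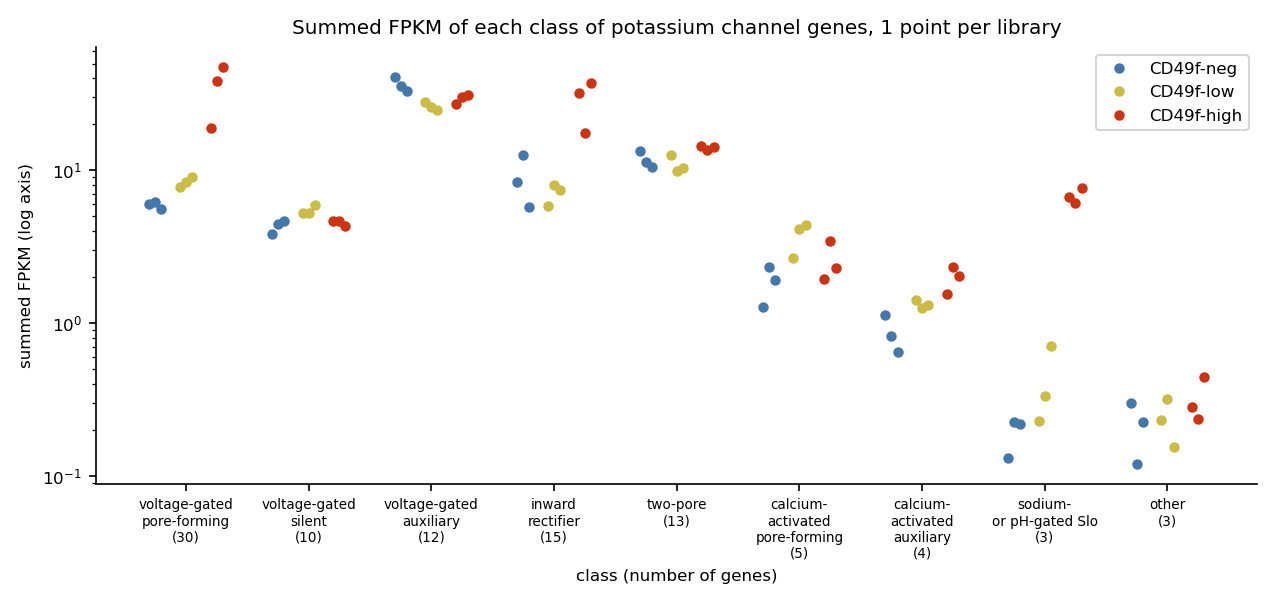
Summed FPKM of each class of potassium channel genes (log axis), 1 point per library, for CD49f-neg, CD49f-low and CD49f-high; the number of genes in a class is in brackets. The pore-forming voltage-gated, inward rectifier and Slo sums of the 3 CD49f-high libraries lie above those of the other 6 libraries.

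Differences between gates were tested with limma on log2(FPKM + 1) over all 20523 rows, with Benjamini-Hochberg adjustment. A difference with an adjusted p under 0.05 is termed called. Fold changes are on that scale and understate the change where FPKM are low. The 2 comparisons with CD49f-high share its libraries, and each gate enters 2 comparisons. Among the 20 Kcn genes tested, 9 were higher and 5 lower in CD49f-high than in CD49f-neg, where 13.9% of all rows tested were called higher and 8.27% lower. Between CD49f-high and CD49f-low, 6 were higher and 5 lower in CD49f-high, against 5.93% and 10.5% of all rows. In CD49f-low, 2 were higher and 3 lower than in CD49f-neg, against 12.8% and 2.62%. The F test over the 3 gates called 15 of 20, against 28.5% of all rows. A gene that passed the filter only through the gate where it is high had to differ, so these counts describe the genes that passed and not the 95. In all 30 calls the 3 libraries of one gate lay wholly above or below the 3 of the other. How often this holds among all called rows was not counted, so it adds no support to the calls. Of the 30, 18 kept their call with each of the 9 libraries left out in turn. The other 12 belonged to Kcnab2, Kcnab3, Kcnd1, Kcne1l, Kcne4, Kcnk2, Kcnk5, Kcns2 and Kcns3, and are given with those genes. The count of genes lower in CD49f-high than in CD49f-neg was 2 without CD49f-neg replicate 2 or CD49f-high replicate 1 and 3 without CD49f-neg replicate 3 or CD49f-high replicates 2 or 3. With CD49f-high replicate 3 left out, 1 gene was lower in CD49f-high than in CD49f-low, with CD49f-low replicate 3 left out 2, and with either CD49f-high replicate 1 or CD49f-low replicate 2 left out 3. The count higher in CD49f-low than in CD49f-neg was 1 without CD49f-neg replicates 2 or 3 or any CD49f-low library. The share of all rows called with a library left out was not computed.

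Over all rows the log2 fold changes did not centre on 0. Their median was 0.07 between CD49f-high and CD49f-neg, -0.15 between CD49f-high and CD49f-low and 0.21 between CD49f-low and CD49f-neg, while the 20 Kcn genes had medians of 0.45, 0.21 and 0.23. With median-of-ratios scaling, which put the medians of all rows at -0.00, -0.02 and 0.01, the Kcn medians were 0.40, 0.32 and 0.10. Genes that passed the filter only through the gate where they are high shift these Kcn medians, which therefore describe the genes that passed. With no filter the medians of the 95 Kcn genes were 0.032, 0.0046 and 0.031, against 0.0074, -0.015 and 0.025 for all rows. The split of calls over all rows moved with the scaling. With median-of-ratios scaling 12.1% of rows were higher and 10.8% lower in CD49f-high than in CD49f-neg, 7.79% and 6.61% in CD49f-high than in CD49f-low, and 5.53% and 5.10% in CD49f-low than in CD49f-neg. With quantile normalization the same shares were 10.7% and 11.3%, 7.68% and 6.97%, and 5.07% and 4.89%. The Kcn counts under median-of-ratios scaling were 9 higher and 5 lower, 6 higher and 4 lower, and 1 higher and 3 lower, and under quantile normalization 8 and 5, 6 and 2, and 1 and 3. With the replicate number as a block, 10 Kcn genes were higher and 6 lower in CD49f-high than in CD49f-neg, when 19.7% and 11.6% of all rows were. The block gave 6 higher and 5 lower in CD49f-high than in CD49f-low, beside 8.07% and 17.8% of all rows, and 4 higher and 3 lower in CD49f-low than in CD49f-neg, beside 24.0% and 4.34%.

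**Figure D2:**
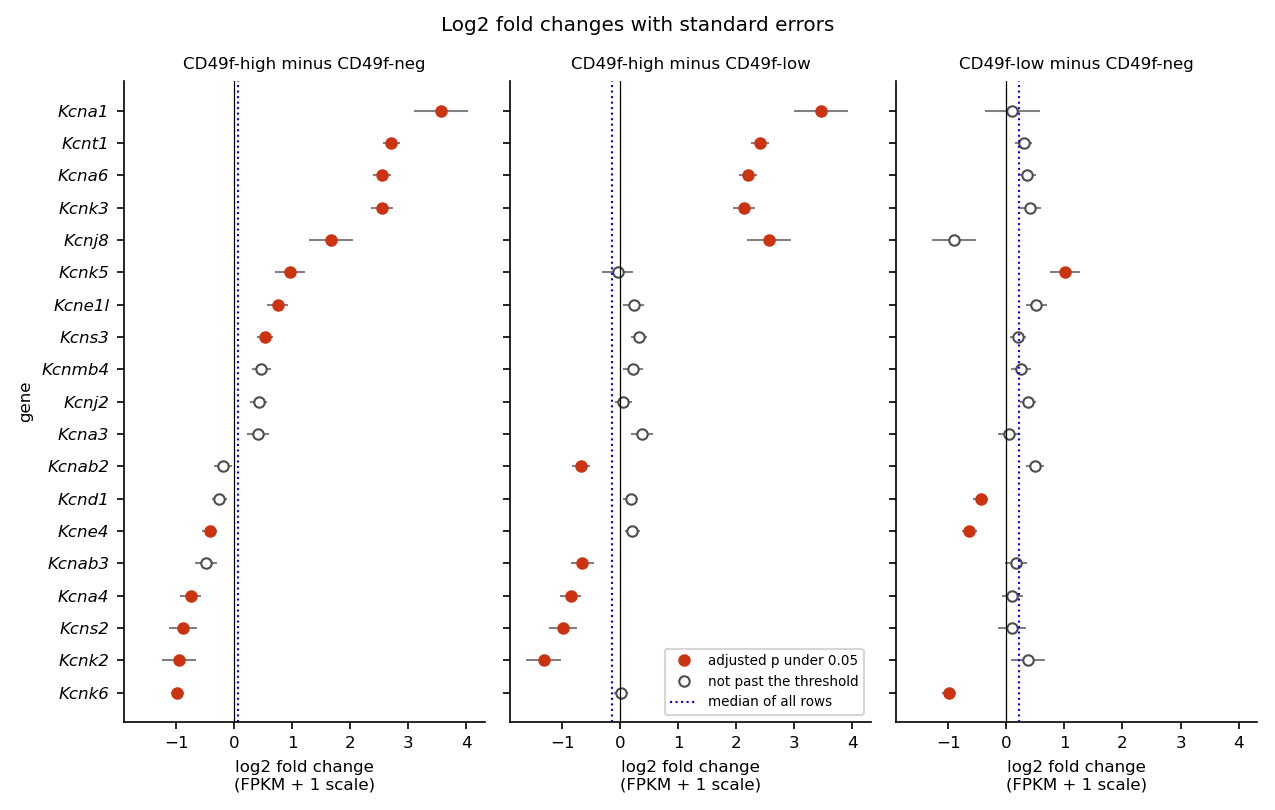
Log2 fold changes (log2(FPKM + 1) scale) with standard errors of 19 of the 20 potassium channel genes tested, for CD49f-high minus CD49f-neg, CD49f-high minus CD49f-low and CD49f-low minus CD49f-neg; filled points passed an adjusted p of 0.05 and the dotted line is the median of all rows. Kcna1, Kcnt1, Kcna6 and Kcnk3 lie above 2 in both CD49f-high panels, and Kcnk6 lies at -0.98 and -0.99 against CD49f-neg and at 0.01 between the other gates.

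Of the pore-forming voltage-gated genes, 6 of 30 passed the filter, and Kcna1 and Kcna6 were among those higher in CD49f-high than in both other gates. Kcna1 encodes Kv1.1, a Shaker-type channel of axons that opens at low voltages. It stood at 0.0790, 0.0861 and 0.0249 FPKM in the CD49f-neg libraries, 0.0860, 0.178 and 0.164 in CD49f-low and 3.80, 16.7 and 22.4 in CD49f-high. All 3 CD49f-high libraries lay above the rest, with replicate 1 the lowest of them by a wide margin. The log2 fold change was 3.56 ± 0.47 (SE) against CD49f-neg (adjusted p = 0.000548, limma) and 3.46 ± 0.47 against CD49f-low (adjusted p = 0.00099). Without CD49f-high replicate 1 these values were 4.26 and 4.16. Kcna1 (GRCm38 chromosome 6, 126640397 to 126646384) neighbours Kcna5 and Kcna6, with gaps of 105.0 and 61.9 kilobases.

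Kcna6 encodes Kv1.6, another Shaker-type channel. Its row (chromosome 6, 126708329 to 126740674) held 0.0763, 0.112 and 0.108 FPKM in CD49f-neg, 0.360, 0.342 and 0.505 in CD49f-low and 4.18, 5.5 and 6.86 in CD49f-high. The 3 gates did not overlap. The fold change was 2.55 ± 0.16 against CD49f-neg (adjusted p = 6.86e-06, limma) and 2.20 ± 0.16 against CD49f-low (adjusted p = 3.69e-05). For CD49f-low against CD49f-neg it was 0.35 ± 0.16 (adjusted p = 0.15), and 1.33 with an adjusted p of 0.0115 when a pseudocount of 0.1 replaced 1. The row also covers a locus with no symbol, and 2355 of its exonic bases overlap those of Gm26673 on the opposite strand. The strand of the counting is not given in the sources used here, so the reads of the 2 genes cannot be told apart.

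Kcna4 and Kcnd1 encode Kv1.4 and Kv4.1, which carry fast-inactivating currents. Kcna4, whose row also covers a locus with no symbol, held 1.49, 1.31 and 1.23 FPKM in CD49f-neg, 2.25, 0.970 and 1.49 in CD49f-low and 0.266, 0.512 and 0.404 in CD49f-high. All CD49f-high libraries lay below the others, which overlapped. Kcna4 fell by 0.75 ± 0.18 on the log2 scale in CD49f-high against CD49f-neg (adjusted p = 0.014, limma) and by 0.86 ± 0.18 against CD49f-low (adjusted p = 0.00992). Kcnd1 held 1.45, 1.79 and 1.46 FPKM in CD49f-neg, 0.751, 1.01 and 0.921 in CD49f-low and 0.888, 1.26 and 1.31 in CD49f-high. The CD49f-neg libraries were the highest, and the CD49f-low and CD49f-high ranges overlapped. Kcnd1 fell by 0.44 ± 0.13 in CD49f-low against CD49f-neg (adjusted p = 0.0481, limma), a difference of -0.65 less the median of all rows. That call was lost without any 1 of the CD49f-neg or CD49f-low libraries, or without CD49f-high replicates 2 or 3, at -0.48 to -0.38 with adjusted p of 0.0571 to 0.129. It was also lost at a pseudocount of 0.1 (-0.75, adjusted p = 0.0505) and with no filter (adjusted p = 0.0923, limma). Kcna3, the Kv1.3 channel known from lymphocytes, was not called. It held 0.646 to 0.729 FPKM in CD49f-neg, 0.527 to 1.11 in CD49f-low and 0.694 to 1.67 in CD49f-high. Without CD49f-high replicate 1 its fold change was 0.61 against CD49f-neg and 0.57 against CD49f-low, with adjusted p of 0.0320 and 0.0494 (limma).

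The electrically silent and auxiliary voltage-gated genes included both the Kcn transcript with the highest mean over the 9 libraries, Kcne4 at 26.2 FPKM, and several small differences. In CD49f-high alone, Kcnj8 had the higher mean, at 25.5 FPKM, against 24.4 for Kcne4. Kcne4, a single-span subunit that inhibits Kv1 and modulates Kv7 channels in expression systems, held 37.7, 32.3 and 29.5 FPKM in CD49f-neg, 22.7, 21.1 and 19.0 in CD49f-low and 22.2, 24.7 and 26.2 in CD49f-high. The CD49f-neg libraries lay above all others. It fell by 0.64 ± 0.12 in CD49f-low against CD49f-neg (adjusted p = 0.00866, limma), a difference of -0.85 less the median of all rows. In CD49f-high it fell by 0.42 ± 0.12 against CD49f-neg (adjusted p = 0.0348, limma), a call lost without CD49f-neg replicates 1 or 2, CD49f-low replicate 2 or CD49f-high replicates 1 or 2, at -0.44 to -0.33 with adjusted p of 0.0567 to 0.0943. It was also lost in a fit on 6 libraries (adjusted p = 0.0715) and with no filter (adjusted p = 0.102, limma). Kcne1l, another single-span subunit, held 1.20, 0.496 and 0.463 FPKM in CD49f-neg, 1.85, 1.31 and 1.13 in CD49f-low and 1.86, 1.62 and 2.04 in CD49f-high. Its CD49f-high libraries lay above the CD49f-neg ones, by 0.75 ± 0.18 (adjusted p = 0.0161, limma). Without CD49f-neg replicates 2 or 3 or CD49f-high replicate 3 the value was 0.64 to 0.70 with adjusted p of 0.0536 to 0.0663. In CD49f-low against CD49f-neg it was 0.51 ± 0.18 (adjusted p = 0.0865), and with the replicate block the adjusted p was 0.0329 (limma). Without CD49f-neg replicate 1 that value was 0.70 with an adjusted p of 0.0204.

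Kcns2 and Kcns3 encode silent subunits that join Kv2 channels. Kcns2 held 0.820, 1.17 and 1.81 FPKM in CD49f-neg, 0.961, 1.47 and 1.81 in CD49f-low and 0.0218, 0.671 and 0.0247 in CD49f-high. Its CD49f-high libraries were the lowest, but replicate 2 lay close to the lowest library of the other gates. Kcns2 in CD49f-high fell by 0.89 ± 0.24 against CD49f-neg (adjusted p = 0.0257, limma) and fell by 0.99 ± 0.24 against CD49f-low (adjusted p = 0.0207). The first call was lost without CD49f-neg replicates 2 or 3 or CD49f-high replicates 1 or 3, at -0.91 to -0.72 with adjusted p of 0.0643 to 0.0968. The second was lost without CD49f-low replicates 2 or 3 or CD49f-high replicates 1 or 3, at -0.96 to -0.87 with adjusted p of 0.0600 to 0.0810, and with quantile normalization (-0.82, adjusted p = 0.0540). With no filter both were lost, at adjusted p of 0.0661 and 0.0524 (limma). Kcns3, a partner of Kv2.1 in pulmonary artery smooth muscle, held 1.82, 1.69 and 1.67 FPKM in CD49f-neg, 2.43, 1.98 and 2.02 in CD49f-low and 3.63, 2.32 and 2.91 in CD49f-high. The CD49f-high and CD49f-low ranges overlapped and both lay above CD49f-neg. Its rise in CD49f-high over CD49f-neg was 0.52 ± 0.14 (adjusted p = 0.0227, limma), and 0.40 to 0.53 with adjusted p of 0.0581 to 0.0747 without CD49f-neg replicates 2 or 3 or CD49f-high replicates 1 or 3. The adjusted p was 0.0652 with quantile normalization (at 0.40), 0.0555 in a fit on 6 libraries and 0.0522 with no filter.

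Kcnab2 and Kcnab3 encode cytoplasmic β subunits of Kv1 channels. Kcnab2 held 0.531, 0.924 and 0.945 FPKM in CD49f-neg, 1.37, 1.43 and 1.79 in CD49f-low and 0.428, 0.858 and 0.472 in CD49f-high. The CD49f-low libraries lay above the others, which overlapped. Kcnab2 fell by 0.68 ± 0.15 in CD49f-high against CD49f-low (adjusted p = 0.015, limma), a call lost without CD49f-low replicate 3 or CD49f-high replicate 3, at -0.63 and -0.61 with adjusted p of 0.0561 and 0.0627, and with quantile normalization, at -0.52 with an adjusted p of 0.0607. Between CD49f-low and CD49f-neg it was 0.50 ± 0.15 (adjusted p = 0.0583), and with the replicate block the adjusted p was 0.0267 (limma). Kcnab3 held 0.544, 1.13 and 1.51 FPKM in CD49f-neg, 0.931, 1.34 and 1.59 in CD49f-low and 0.427, 0.590 and 0.335 in CD49f-high. Its CD49f-high libraries lay below the CD49f-low ones and overlapped CD49f-neg. The difference from CD49f-low was -0.65 ± 0.19 (adjusted p = 0.0472, limma), and it was not called without CD49f-neg replicate 2, CD49f-low replicates 2 or 3 or any CD49f-high library, at -0.72 to -0.56 with adjusted p of 0.0681 to 0.156. Nor was it called with median-of-ratios scaling (-0.56, adjusted p = 0.102), quantile normalization (-0.47, adjusted p = 0.183) or no filter (adjusted p = 0.101, limma). Against CD49f-neg it was -0.48 ± 0.19 (adjusted p = 0.109), with an adjusted p of 0.0490 under the replicate block and of 0.0213 at -0.68 without CD49f-neg replicate 1 (limma).

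**Figure D3:**
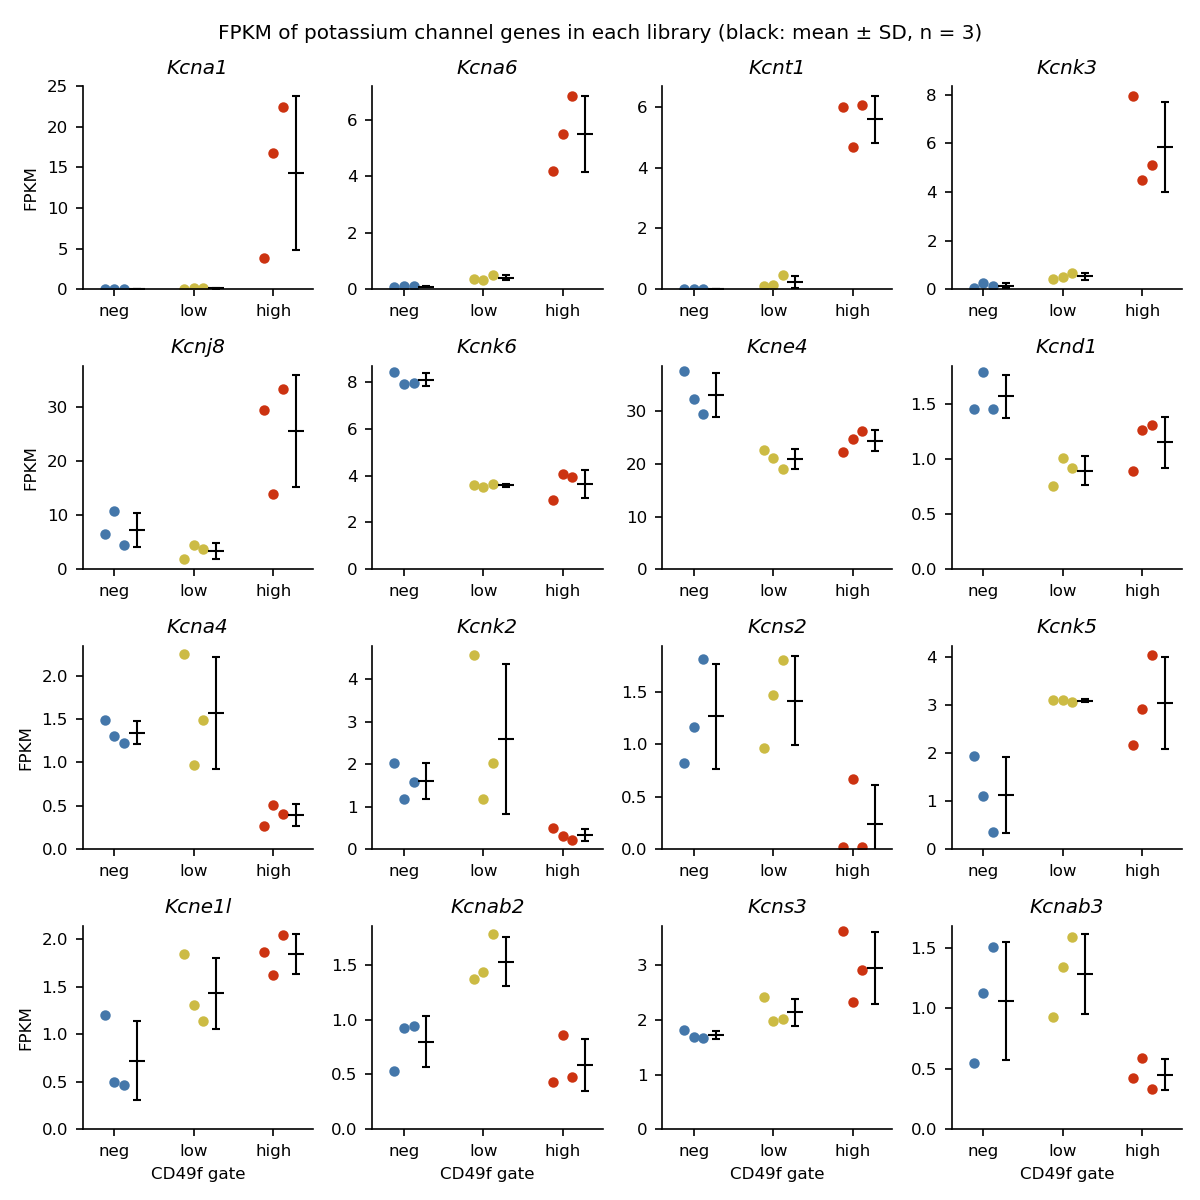
FPKM of 16 potassium channel genes in each of the 9 libraries, by CD49f gate (neg, low, high), with the mean ± SD (n = 3) in black and an axis from 0 for each gene. Kcna1, Kcna6, Kcnt1 and Kcnk3 stay under 0.7 FPKM outside CD49f-high, and Kcnk6 and Kcne4 are highest in CD49f-neg.

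Inward rectifiers were led by Kcnj8, which encodes Kir6.1, the pore of the ATP-sensitive potassium channel of vascular smooth muscle and pericytes. Kcnj8 held 6.43, 10.7 and 4.54 FPKM in CD49f-neg, 1.84, 4.54 and 3.73 in CD49f-low and 29.4, 13.9 and 33.4 in CD49f-high. The CD49f-high libraries lay above all others, and CD49f-low replicate 2 just below the lowest CD49f-neg library. The fold change was 1.67 ± 0.38 against CD49f-neg (adjusted p = 0.0115, limma) and 2.57 ± 0.38 against CD49f-low (adjusted p = 0.00165). For CD49f-low against CD49f-neg it was -0.90 ± 0.38 (adjusted p = 0.135). Kcnj2, the strong inward rectifier Kir2.1, was the other inward rectifier past the filter. It held 0.771 to 0.933 FPKM in CD49f-neg, 1.02 to 1.88 in CD49f-low and 1.37 to 1.68 in CD49f-high. The CD49f-neg libraries were the lowest. Kcnj2 differed by 0.42 ± 0.14 between CD49f-high and CD49f-neg (adjusted p = 0.0665, limma), and the adjusted p was 0.0333 with the replicate block. It was 0.0481 and 0.0451 when the fit left out CD49f-low replicate 1 or replicate 2.

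The sulfonylurea receptor SUR2, the regulatory subunit with which Kir6.1 forms the channel, is encoded by Abcc9, the gene next to Kcnj8 on chromosome 6. Abcc9 held 2.55, 3.47 and 1.49 FPKM in CD49f-neg, 1.31, 2.34 and 2.98 in CD49f-low and 46.5, 24.6 and 41.9 in CD49f-high. As for Kcnj8, CD49f-high replicate 2 was the lowest of its gate and still above every other library. The fold change of Abcc9 was 3.46 against CD49f-neg (adjusted p = 4.1e-05, limma) and 3.58 against CD49f-low (adjusted p = 7.2e-05). Abcc8, the other receptor gene, stayed at 0.0566 FPKM or less. The pair of promoters is shown because both genes were high in the same libraries. They are the bases before the transcription start in RefSeq (GRCm38.p6, minus strand), 250 for Kcnj8 (chr6:142571615-142571864) and 209 for Abcc9 (chr6:142702316-142702524), where 41 bases that GENCODE M21 counts as exon were left out, with motifs in capitals.
Kcnj8: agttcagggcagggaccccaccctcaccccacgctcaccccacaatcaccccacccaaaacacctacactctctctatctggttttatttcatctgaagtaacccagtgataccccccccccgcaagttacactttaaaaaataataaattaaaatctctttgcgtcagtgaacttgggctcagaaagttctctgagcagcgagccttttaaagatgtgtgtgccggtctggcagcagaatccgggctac
Abcc9: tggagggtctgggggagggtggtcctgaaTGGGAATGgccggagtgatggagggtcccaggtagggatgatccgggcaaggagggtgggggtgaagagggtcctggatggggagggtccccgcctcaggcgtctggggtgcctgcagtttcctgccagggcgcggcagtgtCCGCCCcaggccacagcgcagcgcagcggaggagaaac
Both strands were searched for the SOX motif ACAAAG, the TEAD motif GGAATG, the RBPJ motif TGGGAA, the GC box GGGCGG, the TATA box TATAAA and the CArG box. Of 32851 RefSeq promoters, 16.5%, 12.6%, 21.6%, 32.7%, 12.4% and 1.47% held them within the 250 bases before the start. The Kcnj8 window held none of them. The Abcc9 window held TGGGAATG, in which the RBPJ and TEAD motifs overlap, and a GC box on the other strand. Of 68 Kcn genes with a promoter entry, 41 held a GC box, 18 the RBPJ motif, 14 the TEAD motif, 9 the SOX motif, 3 the TATA box and 0 the CArG box. A gene counted if any of its promoter entries held the motif. These counts are therefore not to be set against the shares above, which are of single promoters. A match of letters describes the sequence and not the binding of a factor.

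All 4 two-pore genes past the filter were called between CD49f-high and CD49f-neg, 2 in each direction. Of all rows tested, 13.9% were called higher and 8.27% lower. Kcnk3 reached 1 FPKM only in CD49f-high and so had to differ, and the calls of Kcnk2 and Kcnk5 depended on single libraries. The count is therefore not read as a trait of the class. Kcnk3 encodes TASK-1, an acid-sensitive leak channel of pulmonary artery smooth muscle and other cells. It held 0.0650, 0.248 and 0.134 FPKM in CD49f-neg, 0.419, 0.491 and 0.685 in CD49f-low and 7.96, 4.48 and 5.11 in CD49f-high. The gates did not overlap. Its fold change was 2.55 ± 0.18 against CD49f-neg (adjusted p = 1.53e-05, limma) and 2.13 ± 0.18 against CD49f-low (adjusted p = 8.42e-05). Between CD49f-low and CD49f-neg it was 0.41 ± 0.18 (adjusted p = 0.15), and 1.39 with an adjusted p of 0.0265 at a pseudocount of 0.1. An overlap of 229 exonic bases with Gm9899 on the opposite strand involves a row of at most 0.207 FPKM.

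Kcnk6 encodes TWIK-2, a leak channel found in endolysosomes and vascular cells. It held 8.41, 7.92 and 7.94 FPKM in CD49f-neg, 3.61, 3.50 and 3.63 in CD49f-low and 2.95, 4.05 and 3.95 in CD49f-high. The CD49f-neg libraries lay above those of both other gates, whose ranges overlapped. Kcnk6 fell by 0.99 ± 0.12 on the log2 scale in CD49f-low against CD49f-neg (adjusted p = 0.000513, limma), or by 1.20 less the median of all rows. It fell by 0.98 ± 0.12 in CD49f-high against CD49f-neg (adjusted p = 0.00029). Between CD49f-high and CD49f-low the difference was 0.01 ± 0.12 (adjusted p = 0.954).

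Kcnk2 and Kcnk5 encode TREK-1, a channel opened by stretch and lipids, and TASK-2, a channel opened by alkaline pH. Kcnk2 held 2.03, 1.19 and 1.58 FPKM in CD49f-neg, 4.57, 1.19 and 2.02 in CD49f-low and 0.491, 0.302 and 0.220 in CD49f-high. All CD49f-high libraries were below the others. In CD49f-high it fell by 1.32 ± 0.30 against CD49f-low (adjusted p = 0.0142, limma), and the value without CD49f-high replicate 3 was -1.26 with an adjusted p of 0.0507. Against CD49f-neg it fell by 0.95 ± 0.30 (adjusted p = 0.0463, limma), a call lost without any CD49f-neg or CD49f-high library or CD49f-low replicate 3, at -1.07 to -0.83 with adjusted p of 0.0650 to 0.116, or with no filter, at an adjusted p of 0.116. It shares 604 exonic bases with A430027H14Rik on the opposite strand. Kcnk5 held 1.94, 1.10 and 0.362 FPKM in CD49f-neg, 3.12, 3.10 and 3.06 in CD49f-low and 2.16, 2.92 and 4.05 in CD49f-high. The CD49f-neg libraries were spread widely and lay below the rest. Kcnk5 rose by 1.01 ± 0.26 in CD49f-low against CD49f-neg (adjusted p = 0.0319, limma), or 0.80 less the median of all rows, and by 0.96 ± 0.26 in CD49f-high against CD49f-neg (adjusted p = 0.0265). The first call was lost without CD49f-neg replicates 2 or 3 or any CD49f-low library, at 0.72 to 1.03 with adjusted p of 0.0728 to 0.0892, with both other scalings (adjusted p of 0.0899 and 0.0856) and with no filter (adjusted p = 0.0875). The second was lost without CD49f-neg replicates 2 or 3 or CD49f-high replicates 2 or 3, at 0.68 to 0.99 with adjusted p of 0.0633 to 0.0879, in a fit on 6 libraries (adjusted p = 0.0653) and with no filter (adjusted p = 0.0727).

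Kcnt1 encodes Slack, a sodium-activated channel of neurons, and was the Kcn gene with the smallest adjusted p. It held 0.00549, 0.00352 and 0.00337 FPKM in CD49f-neg, 0.107, 0.151 and 0.481 in CD49f-low and 6.0, 4.68 and 6.06 in CD49f-high. The gates did not overlap, and the CD49f-high libraries differed little from one another. The fold change was 2.71 ± 0.15 against CD49f-neg (adjusted p = 4.69e-06, limma) and 2.41 ± 0.15 against CD49f-low (adjusted p = 2.14e-05). Between CD49f-low and CD49f-neg it was 0.30 ± 0.15 (adjusted p = 0.191), and 1.58 with an adjusted p of 0.0287 at a pseudocount of 0.1.

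No pore-forming calcium-activated gene passed the filter. Kcnn2, the small-conductance channel SK2 and the highest of the 5 on average, held 0.299, 0.443 and 0.476 FPKM in CD49f-neg, 0.862, 1.07 and 1.5 in CD49f-low and 0.659, 0.949 and 0.877 in CD49f-high. Kcnma1, the pore of the large-conductance BK channel, stayed at 0.170 to 0.379 FPKM in all 9 libraries. Of the BK auxiliary genes, Kcnmb4, the β4 subunit, passed the filter and was not called. It held 0.630 to 1.12 FPKM in CD49f-neg, 1.14 to 1.28 in CD49f-low and 1.01 to 2.04 in CD49f-high, in a row that covers a further locus with no symbol and overlaps Kcnmb4os1 on the opposite strand. Its difference between CD49f-high and CD49f-neg was 0.47 ± 0.17 (adjusted p = 0.0799, limma), and 0.64 with an adjusted p of 0.0164 without CD49f-high replicate 1. Kcnrg, a regulator of Kv channel assembly, stayed at 0.0370 to 0.320 FPKM in all 9 libraries.

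**Figure D4:**
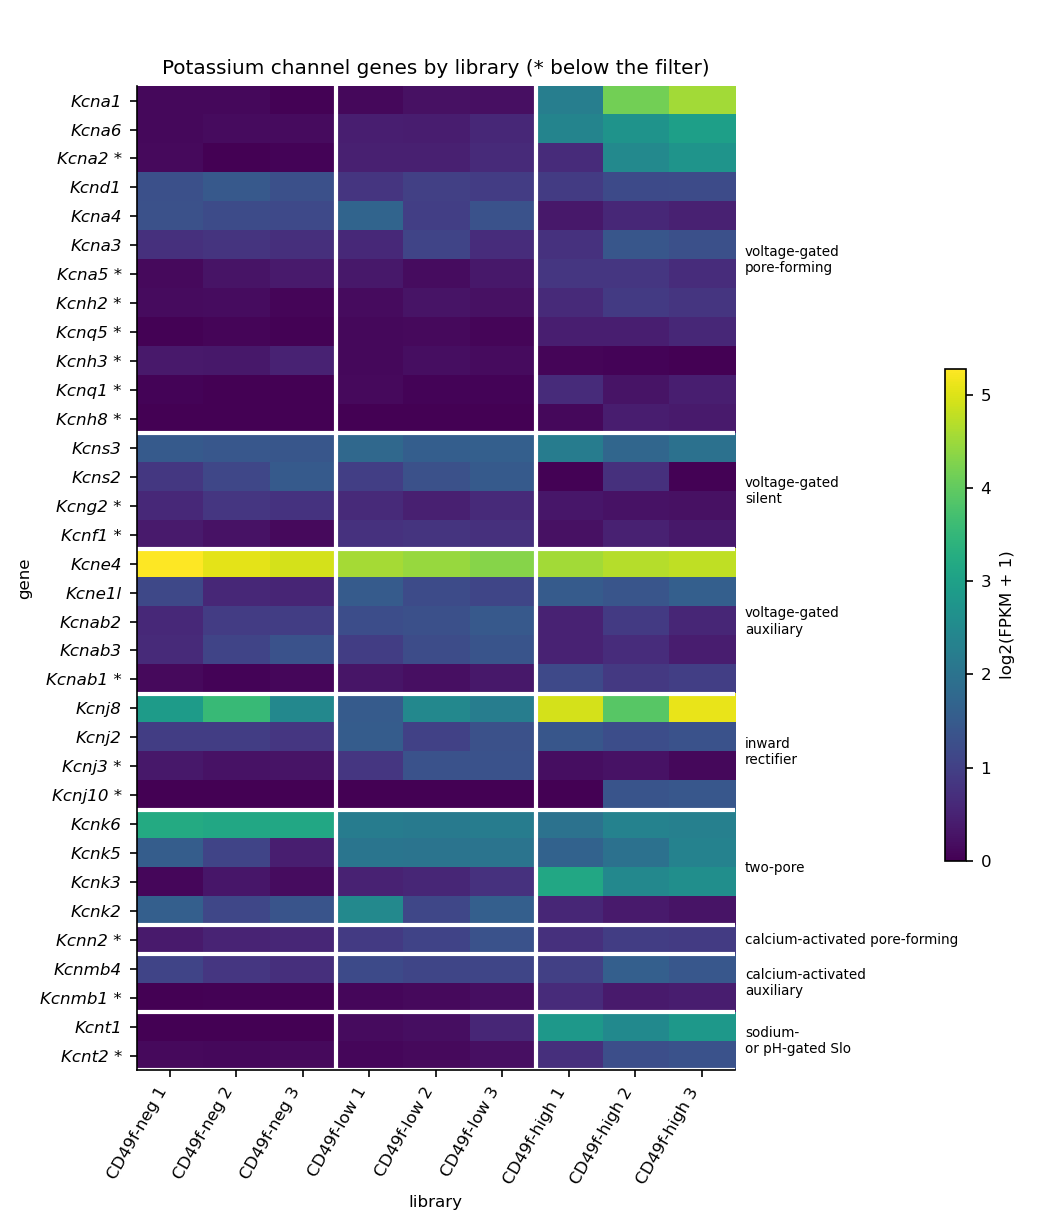
log2(FPKM + 1) of 19 of the 20 potassium channel genes tested and of 15 below the filter (asterisk) in the 9 libraries, by class and gate. The CD49f-high columns are bright for Kcna1, Kcna6, Kcnt1, Kcnk3 and Kcnj8, and Kcna1, Kcna2 and Kcnj10 are darker in CD49f-high replicate 1 than in replicates 2 and 3.

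Some genes below the filter differed between gates when all 84809 rows were fitted. Those named here were chosen after their values were seen. In that fit 16 of the 95 Kcn genes were higher and 4 lower in CD49f-high than in CD49f-neg, against 3.79% and 2.17% of all rows. Between CD49f-high and CD49f-low, 11 were higher and 4 lower, against 1.76% and 2.59%, and between CD49f-low and CD49f-neg 4 were higher and 2 lower, against 2.50% and 0.687%. Among the 75 genes below the filter the counts were 9 higher and 2 lower, 5 higher and 1 lower, and 3 higher and 0 lower. The share of all rows below the filter that were called was not computed, so these counts have no background beside them. The shares above include the rows that passed. Over the 3 gates the F test called 21 of the 95, against 7.48%.

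Kcna2, which encodes Kv1.2, the usual partner of Kv1.1 in axons, held 0.0996, 0.0127 and 0.0349 FPKM in CD49f-neg, 0.371, 0.378 and 0.554 in CD49f-low and 0.569, 4.56 and 5.63 in CD49f-high. CD49f-high replicate 1 lay just above the CD49f-low range and far below the other libraries of its gate. The fold change against CD49f-neg was 1.88 ± 0.45 (adjusted p = 0.0405, limma, all rows), and 2.53 with an adjusted p of 0.00015 without CD49f-high replicate 1. The call was lost in 10 of 15 alternatives, among them without any 1 of the other libraries, with adjusted p of up to 0.210. The row also covers a locus with no symbol. Kcnt2, the sodium-activated channel Slick, held 0.0874 to 0.0970 FPKM in CD49f-neg, 0.0654 to 0.164 in CD49f-low and 0.644, 1.42 and 1.49 in CD49f-high. In CD49f-high it rose by 0.98 ± 0.15 against CD49f-neg (adjusted p = 0.00577, limma, all rows) and by 0.95 ± 0.15 against CD49f-low (adjusted p = 0.00928), and each call was lost in 1 of 15 alternatives.

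Kcnab1, a further β subunit of Kv1 channels, held 0.0399 to 0.0895 FPKM in CD49f-neg, 0.161 to 0.266 in CD49f-low and 1.23, 0.831 and 0.957 in CD49f-high. In CD49f-high it rose by 0.91 ± 0.10 against CD49f-neg (adjusted p = 0.000911, limma, all rows) and by 0.72 ± 0.10 against CD49f-low (adjusted p = 0.00483), and both calls held in all 15 alternatives run. Kcnab1 thus had its highest mean in the gate in which Kcnab2 and Kcnab3 had their lowest. Neither Kcnab2 nor Kcnab3 was called between CD49f-high and CD49f-neg (adjusted p = 0.454 and 0.109, limma), where their ranges overlapped. Their calls against CD49f-low were lost in 3 and 9 of 16 alternatives, so no opposite pattern is read from these means. Kcnh2, which encodes hERG, the rapid delayed rectifier of the heart, held 0.0530 to 0.126, 0.120 to 0.211 and 0.549 to 0.848 FPKM in CD49f-neg, CD49f-low and CD49f-high. Kcnq5 held 0.0155 to 0.0585, 0.0504 to 0.0979 and 0.353 to 0.501 in the same order. Both genes were called higher in CD49f-high against CD49f-neg in every alternative run. Kcna5, Kcnq1, Kcnh8 and Kcnmb1 also rose in CD49f-high against CD49f-neg, Kcng2 and Kcnh3 fell, and for each of these 6 at least 2 of 15 alternatives lost the call.

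In 8 of the 95 Kcn genes every CD49f-low library lay above all others. They were Kcnab2, which passed the filter, and Kcnd2, Kcnf1, Kcnj3, Kcnj12, Kcnk12, Kcnmb2 and Kcnn3, which did not. The share of all rows with this pattern was not computed, so the count is not read as a trait of Kcn genes. Kcnj3 reached the highest level of the 7 below the filter. It encodes Kir3.1, a subunit of the inward rectifiers that G proteins open, and held 0.272, 0.194 and 0.213 FPKM in CD49f-neg, 0.792, 1.53 and 1.51 in CD49f-low and 0.148, 0.195 and 0.0788 in CD49f-high. Kcnj3 fell by 0.98 ± 0.14 in CD49f-high against CD49f-low (adjusted p = 0.00512, limma, all rows) and rose by 0.88 ± 0.14 in CD49f-low against CD49f-neg (adjusted p = 0.0103). The first call was lost in 1 of 15 alternatives, a fit on 6 libraries (adjusted p = 0.0568). The second was lost in 5 of 15: without CD49f-neg replicates 2 or 3, without CD49f-low replicates 2 or 3, and in a fit on 6 libraries, with adjusted p of up to 0.0669. Opposite-strand Gm26794, which shares 1621 exonic bases with Kcnj3, stayed at 0.214 FPKM or less, and was likewise highest in CD49f-low. Kcnf1, a silent subunit, and Kcnn2 were the other genes below the filter called higher in CD49f-low than in CD49f-neg, each lost in at least 9 of 15 alternatives. The melanocyte, dermal papilla and skeletal muscle markers were highest in CD49f-low too, at the sums given above, and their part in these results was not tested.

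Within CD49f-high, the libraries differed from one another in some of the genes that were high there, as the plot of levels relative to the gate mean shows. The genes in it were chosen after their values were seen. Replicate 1 had the highest mural sum, 1524 FPKM, against 848 in replicate 2 and 1068 in replicate 3, and the lowest Schwann sum, 35.5 FPKM, against 166 and 197. Sox10 and Erbb3, which melanocytes also express, stood at 20.7 to 26.7 and 11.2 to 14.8 FPKM in CD49f-low. Kcna1 was at 0.266, 1.17 and 1.57 times its gate mean in replicates 1 to 3, and Kcna2 at 0.159, 1.27 and 1.57 times. Kcnj10, the Kir4.1 channel of glial cells, was listed at 0 in replicate 1 and held 1.59 and 1.71 FPKM in replicates 2 and 3, with 0.0106 FPKM or less in the other gates. Kcnh8 held 0.0834, 0.344 and 0.298 FPKM with a listed value of 0 in every CD49f-neg library. These 4 genes were lowest in the library where the Schwann sum was lowest, as were many others: of the 83 Kcn genes with a single lowest CD49f-high library, this was replicate 1 for 40, replicate 2 for 18 and replicate 3 for 25. Among the 20 Kcn genes past the filter it was replicate 1 for 11, replicate 2 for 7 and replicate 3 for 2. The same tally over all rows was not made, so these counts are not read as a trait of Kcn genes. The fibroblast and neuronal sums were lowest in replicate 1 too, at 0.743 and 0.411 times their gate means.

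Kcnj8 stood at 1.15, 0.543 and 1.31 times its gate mean and Kcnk3 at 1.36, 0.766 and 0.873 times. Kcnj8, Kcnk3 and Abcc9 were lowest in replicate 2, as was the mural sum, whereas replicate 1 was the highest for Kcnk3, Abcc9 and the mural sum and replicate 3 for Kcnj8. The endothelial sum was lowest in replicate 2 too and highest in replicate 3, at 0.902, 0.706 and 1.39 times its gate mean in replicates 1 to 3. Kcna6 and Kcnt1 varied less, between 0.758 and 1.24 times their gate means. With 3 libraries no relation across samples was tested, and the part of these cell types in the Kcn differences was not tested either.

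**Figure D5:**
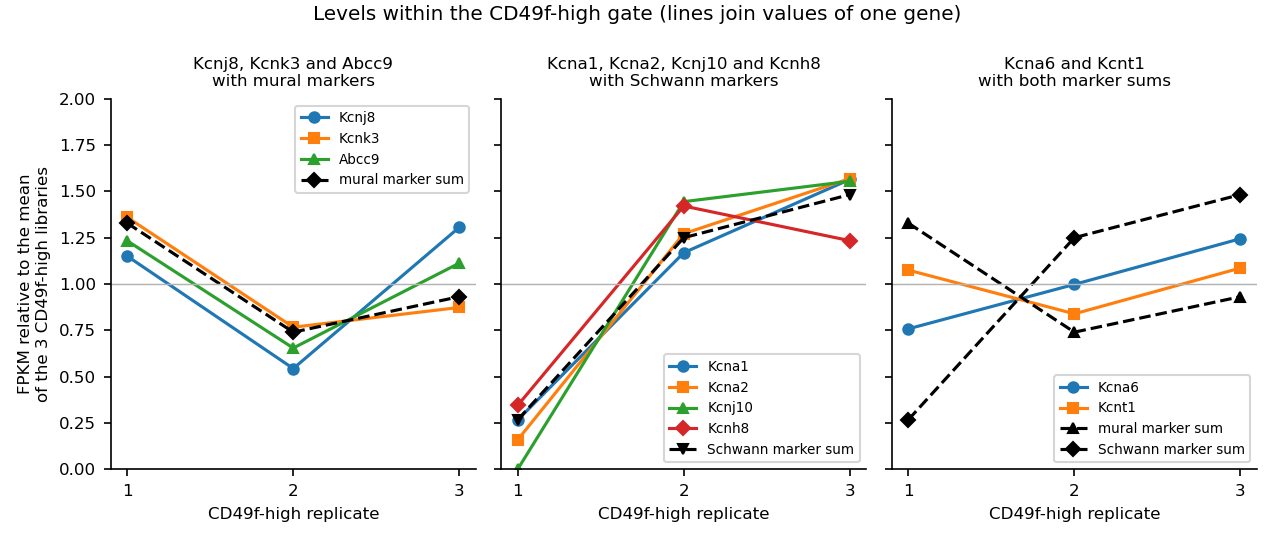
FPKM of 9 genes relative to the mean of the 3 CD49f-high libraries, with the summed mural and Schwann markers (dashed) on the same scale; lines join the values of a gene and imply no order of the replicates. Kcnj8, Kcnk3 and Abcc9 are lowest in replicate 2 like the mural sum, and Kcna1, Kcna2, Kcnj10 and Kcnh8 in replicate 1 like the Schwann sum.

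Other genes of potassium handling and excitability with a row in the table numbered 55 on a list of the partners of the channels, the sodium-potassium pump, cation-chloride cotransporters, pacemaker channels and voltage-gated calcium and sodium channels. Of these, 20 passed the filter. In CD49f-high 10 were higher and 3 lower than in CD49f-neg, against 13.9% and 8.27% of all rows tested. There were 11 higher and 5 lower in CD49f-high than in CD49f-low, against 5.93% and 10.5%, and 4 higher and 1 lower in CD49f-low than in CD49f-neg, against 12.8% and 2.62%. As with the Kcn genes, the filter shapes these counts, which describe only the genes that passed. With no filter 15 of the 55 were higher and 5 lower in the first comparison, against 3.79% and 2.17% of all rows. The second comparison gave 10 and 6, against 1.76% and 2.59%, and the third 5 and 1, against 2.50% and 0.687%. Besides Abcc9, the pump subunit Atp1b2 held 0.597 to 1.03 FPKM in CD49f-neg, 1.59 to 2.71 in CD49f-low and 11.7 to 22.7 in CD49f-high, a fold change of 3.29 for CD49f-high against CD49f-neg (adjusted p = 1.32e-05, limma) and 2.53 against CD49f-low (adjusted p = 0.000112). Cacna1g, the T-type calcium channel Cav3.1, was lower in CD49f-high, at 6.99 to 12.8 FPKM, than in CD49f-neg, at 26.4 to 41.4, and in CD49f-low, at 45.7 to 52.1. Cacna1h, the related Cav3.2, was higher at 5.58 to 8.39 FPKM in CD49f-high, against 0.782 to 1.24 in CD49f-neg and 2.12 to 3.78 in CD49f-low. None of the 4 pacemaker channels, the 4 BK γ subunits or the Kv4 partners Dpp6 and Dpp10 passed the filter.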

How the data were processed

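The authors deposited 1 table of FPKM values, with 1 column per library. The tools were FastQC, TopHat2 and StringTie, on GRCm38, per the submitters' processing notes; versions, order, annotation and strand are not given in the sources used here. Per the file headers, a row carries the symbols it covers, and 14 of the 95 Kcn rows, among them Kcna2, Kcna4, Kcna6, Kcng2, Kcnh3, Kcnmb4 and Kcnq5, also cover a locus with no symbol and are uncertain. The gate in a library's title gave its group. Coordinates are GRCm38, as in the table.

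FPKM were analysed as log2(FPKM + 1), for rows that reached 1 FPKM in 3 or more libraries, with limma 3.58.1 in R 4.3.3. One fit of all 9 libraries by gate, with moderated variances that follow a mean-variance trend and 6 residual degrees of freedom, gave a moderated F test and the 3 differences between gates, with Benjamini-Hochberg adjustment over 20523 rows. Depth was estimated from FPKM steps of single-exon genes, of which 95.6 to 97.9% lay within 0.1 of a whole step (steps of 0.25 fragments), so no exact counts or counting intervals are given. Named genes were the Kcn genes called in any test, the most abundant of each class, and called partner genes, of which a part is named; the results of 1 Kcn gene and of 3 other genes are not reported here and enter only counts and sums. The members, lists and tests were chosen with earlier results of these data known.

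The alternatives tried were no filter or one at 5 FPKM, a pseudocount of 0.1, quantile or median-of-ratios scaling, a fit with no trend, with a replicate block or on 6 libraries, a fold of 2, and leaving out each library. Libraries of the same replicate number deviated together from their gate means (r of 0.252 to 0.520 in 9 pairs, against -0.453 to 0.118 in 18 pairs of different number). The replicate block is therefore given where it changed a call; the labels give no source for the pairing. The fit was tested on simulated data for CD49f-high against CD49f-neg with 200 of 20523 rows changed. It recovered 73% of 2-fold changes and 97% of 4-fold changes, and 6.41% and 8.06% of its calls were false. In the data a larger share of rows was called in this comparison, 13.9% higher and 8.27% lower. The rates were not split by FPKM, and none was obtained for scarce rows. Most Kcn genes were scarce, and Kcna1, Kcna6, Kcnt1 and Kcnk3 were so in CD49f-neg. The simulation therefore cannot show how often changes in such genes are found or falsely called. The rates describe the simulated rows only and are not read as error rates of the Kcn calls. Python 3.11.15, numpy 2.4.6, pandas 2.3.3 and matplotlib 3.10.9 were used.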

Additional observations from a re-analysis of the deposited data

How the results depend on the processing

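All 30 called Kcn differences kept their sign in every alternative run, and 18 kept their call in all of them. The count of Kcn genes higher in CD49f-low than in CD49f-neg was 2, but 5 with a pseudocount of 0.1, 4 with no filter, 0 with the stricter filter, 1 with median-of-ratios scaling, 1 with quantile normalization, 4 with the replicate block, 1 at a fold of at least 2 and 1 to 3 with a library left out. The count lower there was 3, but 0 at a fold of at least 2, and 2 to 3 with a library left out. Between CD49f-high and CD49f-neg the count higher was 9, but 16 with no filter and 1 with the stricter filter, and 6 to 10 with a library left out, and the count lower was 5, but 2 with the stricter filter and 0 at a fold of at least 2, and 2 to 5 with a library left out. Between CD49f-high and CD49f-low the count higher was 6, but 11 with no filter and 1 with the stricter filter, and 6 to 7 with a library left out, and the count lower was 5, but 0 with the stricter filter, 2 with quantile normalization and 1 at a fold of at least 2, and 1 to 5 with a library left out. The F test called 15, but 3 with the stricter filter, under which only 3 Kcn genes were tested, and 10 to 15 with a library left out. Apart from the genes given with it in the report, the replicate block changed no call. The share of all rows called was not computed for the pseudocount of 0.1, the stricter filter, the fold of at least 2 or the fits with a library left out. Shifts of the Kcn counts in those settings are therefore not read as particular to Kcn genes.

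Only uncalled differences changed sign. Between CD49f-low and CD49f-neg, quantile normalization gave -0.11 for Kcna1, -0.26 for Kcna3, -0.15 for Kcna4, -0.0891 for Kcnab3, -0.0157 for Kcnmb4, -0.15 for Kcns2 and -0.0260 for Kcns3, and median-of-ratios scaling -0.0704 for Kcna3, -0.0552 for Kcna4 and -0.0591 for Kcns2. Between CD49f-high and CD49f-low, Kcnk5 was 0.0868 with median-of-ratios scaling and 0.0543 with quantile normalization. With a library left out, the range between CD49f-low and CD49f-neg was -0.10 to 0.13 for Kcna3, -0.0779 to 0.28 for Kcna4, -0.0251 to 0.33 for Kcnab3, -0.00395 to 0.67 for Kcnk2 and -0.0473 to 0.27 for Kcns2, and between CD49f-high and CD49f-low -0.0841 to 0.17 for Kcnj2, -0.22 to 0.12 for Kcnk5 and -0.0520 to 0.12 for Kcnk6. In the fit of all rows, Kcna5 in CD49f-low against CD49f-neg was -0.0243 with median-of-ratios scaling, -0.0778 with quantile normalization and -0.0419 to 0.0820 with a library left out, and Kcnt2 -0.00428, -0.0350 and -0.0138 to 0.0502. Levels under about 0.1 FPKM rest on a few fragments per kilobase, and no finer order was read from them.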
